A study of Mus musculus with 161 samples.

Results

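Of 150203 chromatin sites counted by ATAC-seq in mouse macrophages, 271 opened during M1 polarization and were back near their starting level after the cytokines had been removed. ATAC-seq reads the places where a transposase can cut DNA, and a high count at a site marks accessible chromatin. The sites were chosen by their ATAC-seq values in all 9 libraries. Counts were scaled to the library total as CPM, averaged over the 3 libraries of a condition, and 0.5 was added. A site was taken when 24 h M1 was at least 4 times 0 h M0, the 24 h M1 mean was at least 5 CPM, and 96 h M1→M0 was under 125% of 0 h M0. In all, 1254 sites met the first 2 conditions. Of these, 517 ended between 125% and 2 times 0 h M0 and 466 at 2 times or more. They are called intermediate and stayed-open sites below, and the 271 are called reclosed sites.

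All cells were bone marrow cells of C57BL/6J mice 6 to 10 weeks old, grown for 7 days with M-CSF into bone marrow-derived macrophages (M0). M1 cells then received the bacterial cell wall product LPS at 100 ng/mL and IFN-γ at 25 ng/mL for 24 h. M1→M0 cells were washed after those 24 h and kept for 72 h in medium without the cytokines, which makes 96 h in all. The M2 cells used for RNA received 25 ng/mL IL-4. There were 3 ATAC-seq libraries each of 0 h M0, 24 h M1 and 96 h M1→M0, and no M0 library of 24 or 96 h among them, so that treatment and time in culture cannot be told apart in the ATAC-seq values. The RNA data, deposited as FPKM values of 8307 genes, hold such M0 controls, with 3 libraries for most conditions and 4 for 96 h M0. The libraries are called biological replicates, but separate mice or cultures are not stated, so a p value measures no more than the spread among the libraries at hand. Replicate numbers are not linked between the 2 assays. Library totals lay between 5004005 and 9354620 counts in 0 h M0, between 1730488 and 7917767 in 24 h M1, and between 6316477 and 8194529 in 96 h M1→M0. The shallowest library, 24 h M1 replicate 3, held a median of 15 counts per reclosed site, against 28 and 66 in the other 24 h M1 libraries and 5 to 11 in the rest.

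Macrophages answer LPS and IFN-γ with NF-κB and AP-1 factors, which act within hours on inflammatory genes, and with STAT and IRF factors, which act on interferon-stimulated genes through the GAS and ISRE elements. These factors meet chromatin that PU.1 and C/EBP factors have already opened in the macrophage lineage. Sites that open only after a stimulus are mostly enhancers away from promoters, and some persist when the stimulus is gone.

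Of the reclosed sites 18.5% held an ISRE in the 300 bases around their centre. The same window of the site with the highest 24 h M1 mean held none of the 8 motifs searched. That window leaves out most of the site, which is 2427 bp wide. Stretches of 5 sites are printed to show both cases, with motif matches in capitals, from the mm10 (GRCm38) assembly, plus strand. The first, site 3 by 24 h M1 mean, lies between genes, 226042 bp from the nearest start site, that of Dusp10 (chr1:184260868-184261043), and its capitals mark C/EBP, κB and ISRE matches in that order. Site 119 covers the promoter of the chemokine gene Ccl5 (chr11:83530537-83530697), with PU.1, κB and PU.1-IRF matches. Site 9 lies past the 3′ end of Acod1 (chr14:103057538-103057606) and has a GAS match. Site 73 lies in an intron of Sumf1 (chr6:108146478-108146650) and has a PU.1-IRF match, an ISRE, a PU.1 match and a second ISRE. Site 1, the highest, lies past the 3′ end of Gbp2 (chr3:142639223-142639522), and nothing in it is in capitals.
site 3: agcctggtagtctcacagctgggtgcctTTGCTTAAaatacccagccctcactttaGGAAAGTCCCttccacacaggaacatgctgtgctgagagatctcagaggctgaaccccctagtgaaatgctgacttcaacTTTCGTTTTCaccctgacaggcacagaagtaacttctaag
site 119: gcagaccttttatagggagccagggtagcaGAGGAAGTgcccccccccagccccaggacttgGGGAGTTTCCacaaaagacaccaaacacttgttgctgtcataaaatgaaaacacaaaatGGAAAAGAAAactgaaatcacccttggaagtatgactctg
site 9: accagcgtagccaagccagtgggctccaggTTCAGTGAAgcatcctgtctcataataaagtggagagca
site 73: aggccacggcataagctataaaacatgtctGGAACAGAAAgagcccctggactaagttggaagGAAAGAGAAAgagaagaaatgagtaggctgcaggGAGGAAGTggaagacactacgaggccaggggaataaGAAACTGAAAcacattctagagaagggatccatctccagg
site 1: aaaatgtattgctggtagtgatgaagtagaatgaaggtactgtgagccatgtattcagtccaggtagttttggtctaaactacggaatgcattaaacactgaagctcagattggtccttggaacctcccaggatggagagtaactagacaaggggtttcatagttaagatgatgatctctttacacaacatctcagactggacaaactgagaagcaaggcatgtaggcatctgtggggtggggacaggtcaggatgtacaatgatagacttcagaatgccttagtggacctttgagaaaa

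The reclosed sites had median levels of 1.07 CPM in 0 h M0, 8.33 CPM in 24 h M1 and 1.1 CPM in 96 h M1→M0. The ratio of 24 h M1 to 0 h M0 had a median of 5.35 and ran from 4.00 to 24.4. The ratio of 96 h M1→M0 to 0 h M0 had a median of 1.05 and ran from 0.586 to 1.249. These ratios chose the sites and are given as a description. At all 271 sites every 24 h M1 library lay above every 0 h M0 library and above every 96 h M1→M0 library. The same was true against 0 h M0 at all 517 intermediate and all 466 stayed-open sites. Against 96 h M1→M0 it was true at 98.8% and 92.1% of them. The rule had used these libraries, and the share over all sites was not counted. The libraries of 96 h M1→M0 and 0 h M0 overlapped at all but 7 of the 271 sites. At 6 of those every 96 h M1→M0 library was the lower, and at 1 it was the higher. The mean of 96 h M1→M0 was below that of 0 h M0 at 111 sites. High levels were rarer here than among sites that stayed open: 16 of 271 reclosed sites had a 24 h M1 mean above 20 CPM, against 27 of 517 intermediate and 47 of 466 stayed-open sites.

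**Figure D1:**
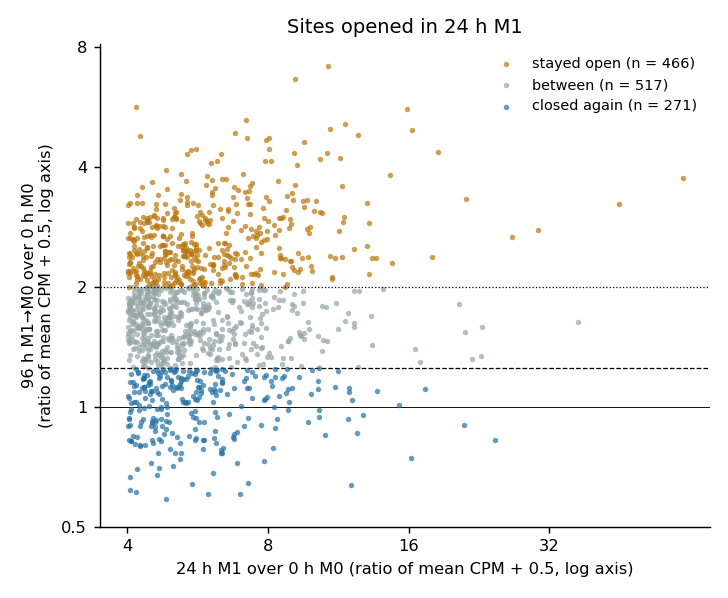
Each point is 1 of the 1254 sites opened in 24 h M1, placed by the ratio of 24 h M1 to 0 h M0 and by the ratio of 96 h M1→M0 to 0 h M0, both of mean CPM plus 0.5 on log axes. The dashed line is the limit of 125% under which the 271 reclosed sites lie and the dotted line the limit of 2, and within each class the points spread over the range of opening from 4 upward with no gap at either limit.

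Sites just inside and just outside each limit had nearly the same values. A site near Dock2 had a ratio of 24 h M1 to 0 h M0 of 4.004 and one near Fyn of 4.010, whereas sites near Ctsk and Pfkfb3 missed the limit at 3.999 and 3.998. On the 24 h M1 mean, sites near Klhl22 and Kcnk10 passed at 5.02 and 5.07 CPM and sites near Pyurf and Bbs10 missed at 4.98 and 4.97 CPM. On the ratio of 96 h M1→M0 to 0 h M0, sites near Lypd6 and Chn2 were inside at 1.249 and 1.247, and sites near Gpr33 and Tyk2 outside at 1.253 and 1.254.

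When the rule was applied without 1 replicate number, the libraries left out met its limits of opening and of return at only a part of the sites taken. Without the numbers 1, 2 and 3 the rule took 335, 281 and 281 sites. In the libraries left out, the median ratio of 24 h M1 to 0 h M0 was 4.66, 5.77 and 5.32, and 61.8%, 78.3% and 64.4% of sites reached 4. The left-out 24 h M1 value was above that of 0 h M0, by any margin, at 335, 280 and 274 sites. The left-out 96 h M1→M0 value was below that of 24 h M1 at 333, 281 and 274 sites. Such shares were not counted over all sites. The median ratio of 96 h M1→M0 to 0 h M0 was 1.19, 1.252 and 1.14, and 57.0%, 49.8% and 55.2% of sites were under 125% of 0 h M0. The rule without those numbers took 197, 176 and 181 of the 271 sites.

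In the test of single sites by edgeR, over 137586 sites, all 271 were higher in 24 h M1 than in 0 h M0, where 16.4% of all sites were higher and 13.8% lower (22575 and 19007 sites, or 20745 and 21758 with RLE size factors). All 271 were lower in 96 h M1→M0 than in 24 h M1, where 9.93% of all sites were higher and 11.6% lower. Between 96 h M1→M0 and 0 h M0 edgeR called 10.0% of all sites higher and 8.14% lower, and 0 of the 271, with 6 at an unadjusted p under 0.05 and 0 by DESeq2. The rule had used these contrasts, and nothing is read from the counts.

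Of the 8 reclosed sites with the highest 24 h M1 mean, 6 lay past a gene's 3′ end, site 7 in an intron and site 3 between genes. CPM are per site and not per length, so wide sites rank higher. Site 1 (chr3:142638159-142640585), 2427 bp wide and centred 1364 bp past the end of Gbp2, a GTPase that acts on intracellular microbes, had 8.66, 4.996 and 7.47 CPM in 0 h M0, 104.7, 86.4 and 75.7 CPM in 24 h M1, and 7.44, 6.62 and 5.54 CPM in 96 h M1→M0. The lowest of the 24 h M1 values rests on 131 counts, for which the exact 95% Poisson interval is 63.3 to 89.8 CPM and covers counting error only. Its 24 h M1 libraries stood far above the rest, and the other groups overlapped.

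Site 2 (chr5:92345580-92346641) was centred 528 bp past the end of Cxcl10, a chemokine for T cells, inside an intron of Art3. It had 2.25, 3.00 and 1.49 CPM in 0 h M0, 36.5, 29.9 and 34.1 CPM in 24 h M1, and 1.83, 1.55 and 2.22 CPM in 96 h M1→M0. Site 4 (chr19:34652087-34653305), 2687 bp past Ifit1, whose product binds viral RNA, had 0.534, 0.400 and 1.49 CPM in 0 h M0, 30.01, 32.7 and 31.8 CPM in 24 h M1, and 0.976, 0.141 and 0.633 CPM in 96 h M1→M0. Both were nearly shut before and after M1, with overlapping libraries, and open in each 24 h M1 library.

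Site 3, the ISRE and κB site near Dusp10, started higher, with 7.59, 7.39 and 7.88 CPM in 0 h M0, 34.7, 33.0 and 32.4 CPM in 24 h M1, and 8.91, 9.86 and 9.97 CPM in 96 h M1→M0. It is the 1 site of the 271 at which each 96 h M1→M0 library was above each 0 h M0 library. The next were site 5 (chr5:105114489-105115245), 900 bp past Gbp4, with 27.4, 27.9 and 33.5 CPM in 24 h M1, and site 6 (chr11:82999223-83001357), 2135 bp wide and 1868 bp past Slfn8. Site 7 (chr11:48863090-48864576) lay in an intron of Irgm1, a GTPase of autophagy and defence. Site 8 (chr11:78961147-78962255) lay where Nos2, which makes nitric oxide, and Lgals9, a galectin, run towards each other, 1447 bp and 1273 bp past their ends, and had 33.5, 27.5 and 19.1 CPM in 24 h M1. Gbp, Ifit and Slfn genes have close copies, and reads of copies can be shared or lost, so values at sites beside them are uncertain to that extent.

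**Figure D2:**
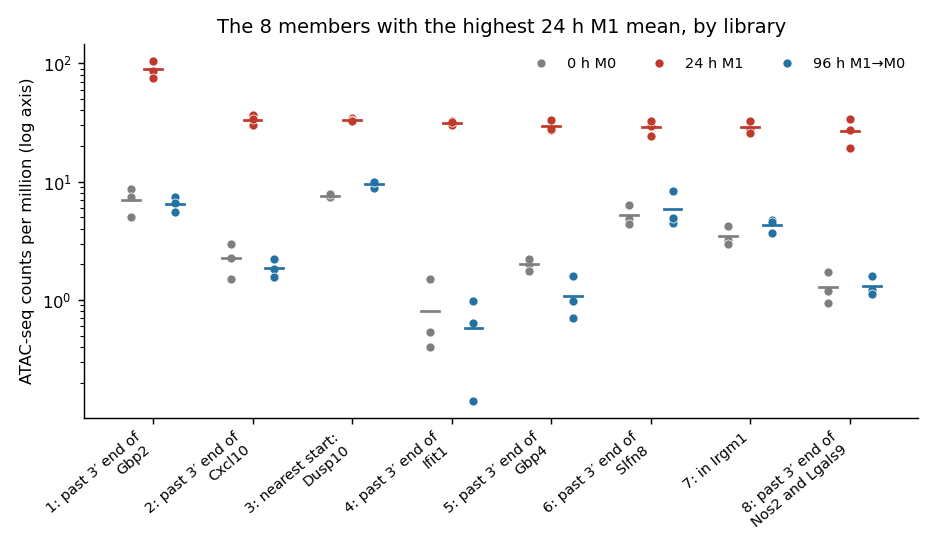
ATAC-seq level in CPM on a log axis for the 8 reclosed sites with the highest 24 h M1 mean. Points are single libraries (3 per condition) and lines are means. At each site the 3 values of 24 h M1 lie above all others, from 19.1 CPM upward. Those of 0 h M0 and 96 h M1→M0 overlap except at site 3, where 96 h M1→M0 is higher, and site 5, where it is lower.

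Reclosed sites were rarely promoters. A start site lay inside the site or within 500 bp of its edge at 4 sites (1.48%). The share was 3.00% of stayed-open sites, 2.32% of intermediate sites and 10.1% of all sites. Introns held 134 sites (49.4%), exons 9, and 124 (45.8%) lay between genes. The promoters were those of Slfn1, Ccl5, Ksr1 and Col15a1. At Slfn1, a gene of the Schlafen family, the 0 h M0 libraries had 2.99, 3.20 and 1.63 CPM, the 24 h M1 libraries 16.8, 18.1 and 23.1 CPM, and the 96 h M1→M0 libraries 3.05, 3.38 and 3.64 CPM. At Ccl5, the values were 0.534, 0.400 and 0.815 CPM, then 5.88, 10.6 and 9.82 CPM, and 0.854, 0.845 and 0.633 CPM after washout. In both, 0 h M0 and 96 h M1→M0 overlapped.

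Position relative to the 3′ end of genes differed between the classes of opened sites. Of the reclosed sites 46 (17.0%) were centred within 5 kb past the 3′ end of a protein-coding gene, against 11.0% of intermediate sites, 7.51% of stayed-open sites and 7.88% of all sites. Within 2 kb the shares were 9.96%, 5.22%, 3.86% and 3.35%, in the same order. Of the 20 reclosed sites with the highest 24 h M1 mean 11 (55.0%) lay in this position, as did 30.9% of the 68 highest and 8.82% of the 68 lowest. The shares on the other side of genes, within 5 kb before a start site, were 5.90% of reclosed, 6.58% of intermediate, 8.80% of stayed-open and 7.75% of all sites. This position was looked at after the highest sites had been seen, and no test was made of the shares. Sites wider than 1 kb made up 7 of the 20 highest reclosed sites and 4 of the other 251.

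**Figure D3:**
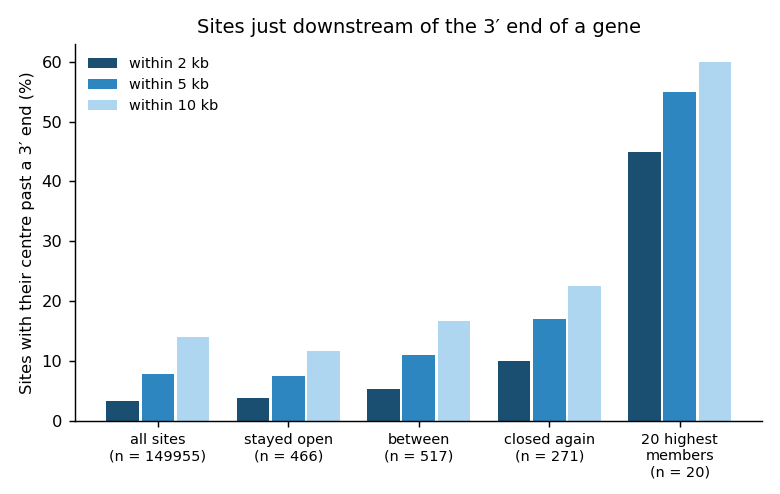
Share of sites (%, axis from 0) with their centre within 2, 5 or 10 kb past the 3′ end of a protein-coding gene, for all sites, the 3 classes of opened sites and the 20 reclosed sites with the highest 24 h M1 mean. The share within 5 kb goes from 7.51% of stayed-open to 17.0% of reclosed sites and 55.0% of the 20 highest.

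The genes so flanked include guanylate-binding proteins (Gbp2, Gbp4, Gbp7, Gbp9), antiviral effectors (Ifit1, Ifit3, Oasl1, Zbp1, Samhd1, Rnf213), Acod1, Nos2, Cd274, Il15ra, the regulator Irf1, and the peptide transporter Tap1 beside the immunoproteasome gene Psmb8. Several had 2 such sites. The pair past Acod1 was 206 bp apart, that near Irf1 209 bp, that past Ifit1 502 bp, and that past Ifit3 504 bp. In all, 17 of the 271 sites had another reclosed site within 10 kb, 34 had an intermediate site and 15 a stayed-open site there. Chromosome 11, which carries the Slfn, Irgm1, Irf1 and Nos2 loci, held 33 reclosed sites (12.2%), against 5.83% of all sites. Of the 185 genes whose start site was the nearest within 50 kb of a reclosed site, 18 (9.73%) were also nearest to a stayed-open site, which is 6.14% of the 293 genes of those sites. Among them were Ifit3, Ifi206, Ifi47 and Gbp8.

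Motifs were searched on both strands in the 300 bases around each centre. Letters were GAAANNGAAA for the ISRE, bound by IRF factors, TTCNNNGAA for the GAS of STAT dimers, GGGANTTNCC for the κB element, and TGANTCA for AP-1. PU.1 was searched as GAGGAAGT, the joint PU.1-IRF element as GGAANNGAAA, C/EBP as TTGCNNAA and CTCF as CCANNAGNNGGC. The letters of the ISRE and the PU.1-IRF element can overlap, and 8 reclosed sites held both. An ISRE was found in 18.5% of reclosed, 20.9% of intermediate, 24.2% of stayed-open and 5.43% of all sites. For AP-1 the shares were 25.1%, 31.3%, 33.3% and 19.5%, in the same order. For κB they were 4.80%, 3.68%, 2.36% and 1.28%, on 13 matches in reclosed sites, and over whole sites 5.17%, 5.22%, 3.65% and 2.16%. The C/EBP shares were 22.5%, 19.9%, 21.0% and 15.8%. GAS letters were in 7.75% of reclosed and 8.94% of all sites, PU.1 letters in 3.69% and 9.23%, PU.1-IRF letters in 7.38% and 5.38%, and CTCF letters in 1.85% and 8.23%. No test was made of these shares.

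Of the 46 reclosed sites past a 3′ end, 13.04% had an ISRE and 0 had κB or PU.1 letters, against 19.6%, 5.78% and 4.44% of the other 225. C/EBP letters were in 26.1% of the 46 and 21.8% of the 225. In a window of 150 bases C/EBP went the other way, with 6.52% of the 46 and 12.4% of the 225. The ISRE shares were then nearly equal, at 13.04% and 12.9%. The κB and PU.1 letters were again in 0 of the 46, against 4.0% and 2.67%. With 46 sites such shares rest on few matches. None of the 8 motifs was found in 36.5% of reclosed, 34.2% of intermediate, 30.7% of stayed-open and 44.1% of all sites, and in 9 of the 20 highest reclosed sites (45.0%). Repeat-masked sequence covered more than 50% of the window in 21.4% of reclosed sites, against 12.96%, 11.2% and 11.0% of intermediate, stayed-open and all sites. Short-read alignments are less certain in repeats.

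**Figure D4:**
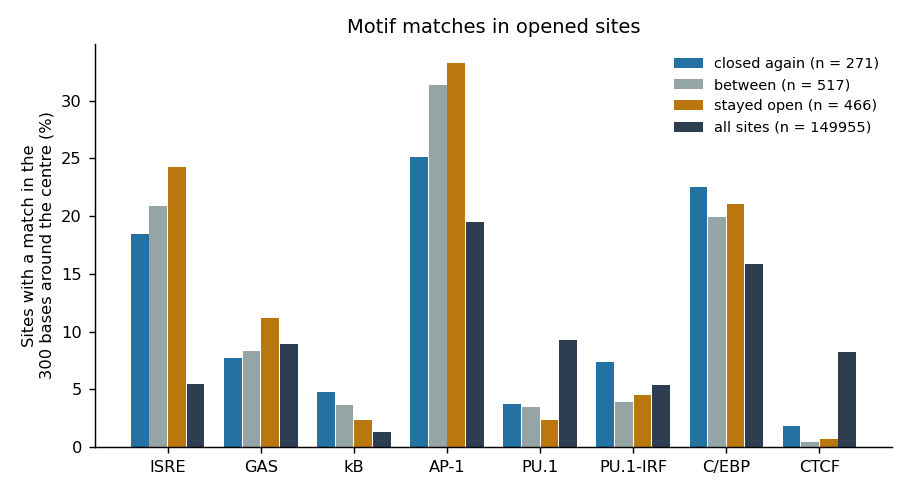
Share of sites (%, axis from 0) with at least 1 match to each of 8 motifs in the 300 bases around the centre, for the 3 classes of opened sites and all sites. ISRE and AP-1 shares go up from reclosed to stayed-open sites (18.5% to 24.2% and 25.1% to 33.3%), and the κB share goes down (4.80% to 2.36%).

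The RNA of nearby genes, which the choice of sites had not used, was compared by limma on log2(FPKM + 1), with a Benjamini-Hochberg adjusted p below 0.05 over 8307 genes. The scale understates changes of low genes, and the sequencing depth behind FPKM is unknown. In bulk samples, fewer cells of a type and less RNA per cell cannot be told apart. RNA libraries numbered 1 stood apart: once condition means were subtracted, the leading principal component held 32.6% of the variance, and those libraries scored highest on it in 45 of 48 conditions. Comparisons with 0 h M0 share its 3 libraries.

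Of the 185 genes linked by their start site within 50 kb, 127 were measured. In 24 h M1 against 0 h M0, 87 rose and 18 fell, with a median log2 difference of 1.06, against 35.9% of all genes higher, 25.2% lower and a median of 0.10. After washout the counts shrank. In 96 h M1→M0 against 0 h M0, 34 rose and 10 fell (median 0.26), against 14.0% higher and 8.39% lower among all genes. This count of 44 was 28 without the libraries numbered 2, 23 without those numbered 3 and 56 without those numbered 1. In 96 h M1→M0 against 96 h M1→M1, cells kept in the cytokines, 14 rose and 72 fell (median -0.53), against 19.4% and 22.8% of all genes. In 96 h M1→M0 against 96 h M0, 34 rose and 7 fell (median 0.20), against 10.7% and 7.19%. In 24 h M2 against 0 h M0, 16 rose and 32 fell (median -0.03), against 18.2% and 14.2%, and these 48 were 27 without the libraries numbered 3. Quantile normalization moved the median of all genes in 24 h M1 against 0 h M0 by 0.149, from 0.10 to -0.05, and the share of calls that were higher from 58.7% to 46.1%.

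Most genes of stayed-open and intermediate sites rose as well. In 24 h M1 against 0 h M0, 155 of 206 measured genes rose and 10 fell (median 0.89), and for intermediate sites 157 of 227 rose and 17 fell (median 0.74). In 96 h M1→M0 against 0 h M0, 65 of the 206 rose, and 51 of the 227. The difference between these classes of genes was not tested.

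Genes with a reclosed site past their 3′ end had a larger median difference. Of 45 such genes 35 were measured. In 24 h M1 against 0 h M0, 31 rose, 1 fell, and the median log2 difference was 4.44, while for the 108 measured genes linked by their start site only it was 0.91. Of genes with a site past the 3′ end that had not opened, 1763 of 4713 rose, with a median of 0.12. In 96 h M1→M0 against 0 h M0, 15 of the 35 rose and 2 fell (median 0.60), and these 17 were 10 without the libraries numbered 3. In 96 h M1→M0 against 96 h M1→M1, 1 rose and 30 fell (median -1.80), and against 96 h M0, 15 rose and 1 fell (median 0.74). In 24 h M2 against 0 h M0, 2 rose and 10 fell (median -0.11), of which 7 calls were left without the libraries numbered 2 and 5 without those numbered 3. The same position at intermediate and stayed-open sites gave 31 of 37 and 23 of 26 genes that rose in 24 h M1, with medians of 3.45 and 1.96. Within 2 kb the medians were 4.94 at reclosed, 3.68 at intermediate and 4.24 at stayed-open sites, so that their order depended on the distance.

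The median RNA difference of these 35 genes came down well before 96 h, the time at which the sites were measured. After 1 h of M1 their median log2 difference from 0 h M0 was 0.56. It then reached 2.76 (2 h), 4.71 (4 h) and 4.78 (6 h), and 24 h M1 stood at 4.44. The 25 h cells, washed for 1 h, stood at 4.35, followed by 2.98 (28 h), 2.12 (30 h), 1.11 (36 h), 0.78 (48 h) and 0.60 (96 h). Cells kept in the cytokines had 3.63 (48 h) and 3.05 (96 h), and M0 cells -0.02 (24 h), -0.35 (48 h) and -0.18 (96 h). The 48 h M0 value rests on fewer libraries than the others. For the 29 genes up by more than 1 at 24 h, the median share of the log2 rise still left was 80.3% after 4 h without cytokines, 39.2% after 12 h, 23.4% after 24 h and 12.5% after 72 h. For all 1078 genes with such a rise, the median shares were 78.8%, 42.2%, 29.4% and 19.1% in the same order, and for 50 such genes linked by their start site only 76.6%, 36.1%, 23.8% and 17.2%.

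**Figure D5:**
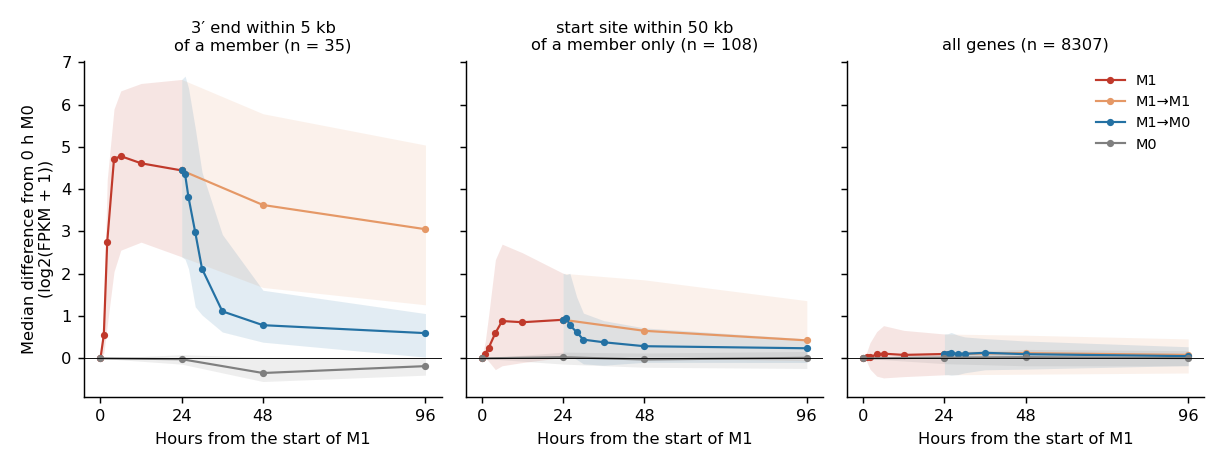
Median log2(FPKM + 1) difference from 0 h M0 (lines, with quartiles over genes shaded) against hours from the start of M1, for genes with a reclosed site past their 3′ end, genes linked by their start site only, and all genes. In the first panel the median reaches 4.78 at 6 h, stays at 3.05 at 96 h with the cytokines kept and is down to 0.60 at 96 h after washout.

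Among the genes flanked at the 3′ end, Gbp2 was at 11.0, 5.09 and 5.82 FPKM in 0 h M0, 3298, 2881 and 2768 FPKM in 24 h M1, and 10.3, 11.8 and 10.9 FPKM in 96 h M1→M0, against 2233, 2239 and 2134 FPKM in 96 h M1→M1. The log2 difference was 8.55 ± 0.49 (SE, limma adjusted p = 1.2e-30) in 24 h M1 and 0.60 ± 0.49 (adjusted p = 0.41) in 96 h M1→M0, both against 0 h M0. Cxcl10 was at 2.75, 1.18 and 2.42 FPKM in 0 h M0, 1619, 606 and 1145 FPKM in 24 h M1, and 1.74, 4.46 and 5.87 FPKM in 96 h M1→M0. For both genes the libraries of 24 h M1 lay far above those of 0 h M0 and 96 h M1→M0. For Cxcl10 those of 0 h M0 and 96 h M1→M0 overlapped, with a log2 difference of 0.62 ± 0.52 (limma adjusted p = 0.42).

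Effector enzymes of M1 cells also came down after washout. Irg1, the name of Acod1 in the deposited matrix, makes the antimicrobial metabolite itaconate. It had 3.71, 0.511 and 0.421 FPKM in 0 h M0, 1085, 568 and 967 FPKM in 24 h M1 and 3.66, 1.48 and 2.73 FPKM in 96 h M1→M0, where its log2 difference from 0 h M0 was 0.70 ± 0.78 (adjusted p = 0.57). Nos2 had 0.170, 0.140 and 0.0316 FPKM, then 741, 519 and 613 FPKM, and 2.33, 1.35 and 1.26 FPKM after washout, a log2 difference of 1.23 ± 0.36 (adjusted p = 0.0081) over 0 h M0. Nos2 thus stayed above its start, at a level far under the 340, 274 and 170 FPKM of 96 h M1→M1.

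Ifit1, an antiviral gene, had 2.276, 1.41 and 1.44 FPKM in 0 h M0, 572, 332 and 410 FPKM in 24 h M1, and 11.0, 5.32 and 7.94 FPKM in 96 h M1→M0, a log2 difference of 1.71 ± 0.31 (adjusted p = 8.1e-06). Ifit3 (1.71), Oasl1 (2.14), Zbp1, a sensor of nucleic acids (1.89), and Rnf213, a ubiquitin ligase (1.41), also rose in 96 h M1→M0 against 0 h M0, while the sites past their ends had closed. Samhd1, which degrades deoxynucleotides, did not pass the test there (-0.18). The start site of Ifit3 was also the nearest to a stayed-open site. For antigen presentation, Tap1 had 18.2, 15.1 and 16.6 FPKM in 0 h M0, 447, 425 and 423 FPKM in 24 h M1, and 24.9, 43.9 and 38.5 FPKM in 96 h M1→M0 (log2 difference 1.03, adjusted p = 0.0011), and Psmb8 rose by 0.73.

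Cd274, which encodes the checkpoint ligand PD-L1, had 13.1, 12.2 and 9.38 FPKM in 0 h M0, 1109, 842 and 899 FPKM in 24 h M1, and 25.7, 18.9 and 15.4 FPKM in 96 h M1→M0. Its log2 difference after washout was 0.72 ± 0.30 and did not pass the test (adjusted p = 0.072), though every library lay above those of 0 h M0. Irf1, which drives interferon-induced genes, was at 28.9, 19.4 and 20.2 FPKM in 0 h M0, 493, 531 and 507 FPKM in 24 h M1 and 22.5, 42.3 and 39.3 FPKM in 96 h M1→M0 (log2 difference 0.55, adjusted p = 0.22). Some genes went against the majority. Dkc1, a protein of telomerase and of ribosomal RNA modification, fell by 1.91 in 24 h M1 (log2). Serpina3g, a serine protease inhibitor, rose by 6.44 in 24 h M1 and then fell by 1.54 below 0 h M0 in 96 h M1→M0. Rarg, a retinoic acid receptor, was at -0.12 in 24 h M1 and fell by 1.251 in 96 h M1→M0. Gbp4, Slfn8, Lgals9, Rnf213, Dkc1, Serpina3g and Rarg were singled out after their values had been seen.

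At the promoter sites, 2 of the 4 genes were measured. Slfn1 had 1.42, 1.29 and 1.65 FPKM in 0 h M0, 127, 107 and 123 FPKM in 24 h M1, and 2.07, 2.32 and 2.30 FPKM in 96 h M1→M0, where the log2 difference from 0 h M0 was 0.40 ± 0.17 (adjusted p = 0.074). Against 96 h M0 it rose by 1.60. Ccl5 had 4.46, 2.46 and 3.12 FPKM in 0 h M0, 10158, 7046 and 8663 FPKM in 24 h M1, and 362, 176 and 260 FPKM in 96 h M1→M0. Its log2 difference was 10.96 ± 0.60 in 24 h M1 and 5.91 ± 0.60 (adjusted p = 6.5e-14) in 96 h M1→M0. The low 96 h M1→M0 accessibility of its promoter is what chose that site.

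Other genes linked by their start site with large changes in 24 h M1 included Gm4955, listed as Ifi206 in the annotation and a member of an interferon-inducible family. Its log2 difference was 7.71 in 24 h M1 and 3.02 in 96 h M1→M0, and its start site was also the nearest to a stayed-open site. The largest falls were in St6gal1, a sialyltransferase (-2.72), Ephx1, an epoxide hydrolase (-2.16), Pam, an enzyme that amidates peptides (-1.67), Pmf1, a kinetochore protein (-1.24), Pmp22, a membrane protein (-1.09), and Rcbtb2 (-1.08). St6gal1 went from 25.3, 33.6 and 26.1 FPKM in 0 h M0 to 2.66, 3.64 and 4.06 FPKM in 24 h M1 and was back at 15.3, 20.7 and 24.9 FPKM in 96 h M1→M0. In each of these 6 genes RNA was higher in 96 h M1→M0 than in 96 h M1→M1, and in each a site nearby had opened while the RNA was low.

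Gene lists were chosen with earlier results of these data known, and their counts stand beside 35.9% of all genes that rose and 25.2% that fell in 24 h M1, and 14.0% that rose in 96 h M1→M0 against 0 h M0. Among all 8307 genes of the matrix, 127 were linked to a reclosed site by their start site and 35 by their 3′ end. Of 40 interferon-stimulated genes 12 were linked to a reclosed site by their start site or 3′ end, and 13 to a stayed-open site. All 40 rose in 24 h M1, 32 rose in 96 h M1→M0 against 0 h M0, and 38 fell against 96 h M1→M1. Of 18 M1 effector genes 5 were linked (Acod1, Fpr2, Il15ra, Nos2 and Ptges), 3 were linked to stayed-open sites, and 17 of 18 measured rose in 24 h M1 and 3 in 96 h M1→M0. Of 24 inflammatory cytokines and chemokines only Cxcl10 and Ccl5 were linked, 2 were linked to stayed-open sites, and 16 of 23 measured rose in 24 h M1. Of 17 negative feedback genes Cd274 and Trim30a were linked, 3 were linked to stayed-open sites, and 12 rose. Of 13 genes of MHC class I processing Tap1, Tap2 and Psmb8 were linked, 0 to stayed-open sites, and 13 rose. Of 22 IL-4 response genes Pdcd1lg2 and Klf4 were linked, 1 was linked to a stayed-open site, and 7 of 21 measured rose and 7 fell in 24 h M1. No link was found for 8 MHC class II genes, of which 6 were measured and 6 rose in 24 h M1, nor for 14 core macrophage genes, of which 5 rose and 3 fell.

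The genes of the factors whose motifs were searched were compared in the same way. In 24 h M1 against 0 h M0, 5 of 8 IRF genes, 4 of 6 measured STAT genes, 2 of 5 NF-κB genes, 4 of 11 AP-1 genes and 1 of 4 genes of the C/EBP and PU.1 list rose, and 2 AP-1 genes and 1 C/EBP gene fell, where 35.9% of all genes rose and 25.2% fell. After washout 2 IRF and 2 STAT genes were still above 0 h M0 by the test, where 14.0% of all genes were higher. Irf7 rose by 7.53 and was still up by 3.38 in 96 h M1→M0, and Stat2 rose by 4.34 and was still up by 1.46. Batf2, an AP-1 factor, rose by 4.95 and was at 0.71 after washout, which did not pass the test. Nfkb2 rose by 1.04 and was at -0.34 after washout, and Cebpb rose by 1.54 and was at -0.27, neither past the test. Spi1, which encodes PU.1, was at 0.27 in 24 h M1, not past the test, and fell by 0.48 in 96 h M1→M0.

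Markers of other cells differed between the groups compared. The summed level of 9 measured neutrophil markers of 10 was 967 to 2777 FPKM in 0 h M0, 20.7 to 39.98 FPKM in 24 h M1, 4.26 to 11.9 FPKM in 96 h M1→M0 and 9.0 to 18.8 FPKM in 96 h M0, and all 9 fell in both comparisons with 0 h M0. Ighm, the 1 measured lymphocyte marker of 10, was at 72.1 to 95.3 FPKM in 0 h M0, 56.0 to 79.9 FPKM in 96 h M0, 0.466 to 1.16 FPKM in 24 h M1 and 0.882 to 1.57 FPKM in 96 h M1→M0. The 14 core macrophage genes, such as Csf1r and Cd68, were all measured. They summed to 20604 to 27820 FPKM in 0 h M0, 14944 to 20152 FPKM in 24 h M1 and 17153 to 18823 FPKM in 96 h M1→M0. Of 6 fibroblast markers 2 were measured, which summed to 2.40 to 16.4 FPKM in 0 h M0, 0.830 to 25.6 FPKM in 24 h M1, 0.296 to 0.941 FPKM in 96 h M1→M0 and 18.2 to 128.0 FPKM in 96 h M0. Of 8 dendritic cell markers 1 was measured, Fscn1, at 0.482 to 1.02 FPKM in 0 h M0, 0.192 to 0.863 FPKM in 24 h M1, 0.0347 to 0.257 FPKM in 96 h M1→M0 and 1.203 to 7.33 FPKM in 96 h M0. The part of these cells in the RNA results was not tested. None of the markers of other cell types was linked to a reclosed site. Of 21951 protein-coding genes only 185 were linked by their start site and 45 by their 3′ end. With so few links, their absence at these markers tells nothing about those cells.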

How the data were processed

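Accessibility was measured by ATAC-seq in 9 libraries (0 h M0, 24 h M1 and 96 h M1→M0, 3 each) and RNA by bulk RNA-seq in 145 libraries of 48 conditions, all of bone marrow-derived macrophages. Per the labels and the study's methods, the authors aligned ATAC-seq reads to mm10, removed duplicates (SAMtools 1.9), called peaks with MACS2 2.1.0 on all libraries merged, counted reads per merged peak with bedtools 2.28.0 and deposited these raw counts. For RNA, the authors used TopHat2 2.0.14, Cuffquant and Cuffnorm 2.2.2, and the deposited matrix holds log10(FPKM + 1) of 8307 genes above 10 FPKM in some library. Single-cell UMI counts, deposited by the authors after Cell Ranger, were summed per library.

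From these files, counts were scaled to CPM of the library total, and log10 values were turned into FPKM and log2(FPKM + 1). ATAC-seq was tested with edgeR 4.0.16 (quasi-likelihood, TMM, all 9 libraries, sites over 10 counts in 1 library) and RNA with limma 3.58.1 in R 4.3.3 (all libraries, a mean per condition, mean-variance trend). DESeq2 1.42.0 was an alternative. All tests were two-sided, with Benjamini-Hochberg adjustment over all features and a threshold of 0.05, and limma gives every RNA p value and SE. Simulated data with known changes in 24 h M1 against 0 h M0 were used as a check. On 20000 sites edgeR found 8% of 2-fold and 79% of 4-fold changes with 3 false calls. On 8307 genes limma found 90% of changes of 1 and 99% of changes of 2 (log2) with 12 false calls. The simulated ATAC-seq counts had the same relative spread beyond counting error at every site, and few sites or genes were changed. The shares found therefore need not hold for the real data.

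Site starts were read as 0-based, and positions are printed 1-based. The GENCODE basic annotation of GRCm38 gave genes, start sites and 3′ ends. RefSeq gave the GRCm38 sequence and the gene synonyms used to match symbols. Of the 8307 matrix symbols 7875 matched a protein-coding gene. A gene was linked to a site when its start site was the nearest, within 50 kb, or when its 3′ end lay within 5 kb upstream of the site's centre. The second link was added after the values of the highest sites had been seen. The sites and gene lists were chosen with earlier results of these data known. Named sites are the 8 with the highest 24 h M1 mean and those at the limits. Named genes are those with a promoter site, the 6 largest rises and 6 largest falls in 24 h M1 among linked genes of at least 20 FPKM, genes linked to 3 or more sites, linked genes of the lists, and the motif factors, with exceptions named in the text. Deviations of same-numbered libraries from condition means correlated at -0.0523 to 0.0303 in ATAC-seq, so the numbers do not pair there. In RNA they paired where every correlation exceeded 0.1. This held for 0 h M0 with 24 h M1 (0.134 to 0.493) or with 24 h M2 (0.403 to 0.540), and for the M1→M0 and M1→M1 libraries of 96 h (0.405 to 0.492). It did not hold for M1→M0 with 0 h M0 (-0.122 to 0.225) or with 96 h M0 (-0.160 to 0.370). Each RNA range rests on 3 correlations, and a shared effect of the number was not tested. Libraries numbered 1 scored highest on the leading component in 45 of 48 conditions.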

Additional observations from a re-analysis of the deposited data

Results flagged for a closer look

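In 96 h M0, the 1 condition used here with 4 libraries, 6 of 86 named genes had 1 library far from the other 3 by Dixon's test at 95%, which chance gives in about 1 of 20 groups. Ccl5 was at 5.86 FPKM in the highest library and at 1.102 to 1.48 FPKM in the others, Gbp4 at 0.260 against 0.00764 to 0.0362 FPKM, and Tap2 at 17.6 against 10.9 to 12.0 FPKM. The factor genes Nfkb1 (38.8 against 36.6 to 36.9 FPKM), Stat3 (30.1 against 26.9 to 27.4 FPKM) and Stat5a (6.60 against 5.38 to 5.57 FPKM) had small gaps. Both Ccl5 and Gbp4 rose in 96 h M1→M0 over 96 h M0 in the limma test, by 6.43 and 1.04 on the log2 scale.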

How the results depend on the processing

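The number of reclosed sites moved mostly with the limits of the rule. The 271 became 86 with a 24 h M1 mean of at least 10 CPM, 42 with an opening of at least 8 times and 558 with 3 times, and 437 or 161 when 96 h M1→M0 had to be under 1.5 or 1.1 times 0 h M0. TMM scaling gave 306, DESeq2 size factors 287, and leaving out libraries 256 to 335. Sites called over the whole table, 41582 for 24 h M1 against 0 h M0, 29556 for 96 h M1→M0 against 24 h M1 and 25029 for 96 h M1→M0 against 0 h M0, were 24506 to 32737, 15830 to 21326 and 9982 to 17214 without a replicate number, and by DESeq2 the latter pair was 19225 and 13174.

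Gene counts moved with the link. With a start site within 10 kb in place of 50 kb, 42 genes were called in 24 h M1, 21 in 96 h M1→M0, 38 in 96 h M1→M0 against 96 h M1→M1, 19 against 96 h M0 and 17 in 24 h M2, and within 500 bp 2, 1, 2, 2 and 1. Without a replicate number, 23 to 56 start-linked genes were called in 96 h M1→M0 against 0 h M0 and 27 to 58 in 24 h M2, and 10 to 21 and 5 to 17 of those linked by the 3′ end. With 3′ ends within 2 kb 21 genes were called in 24 h M1, and with 10 FPKM added 4 in 24 h M2. With the replicate number as a block, 109 start-linked genes were called in 24 h M1 (105 without) and 88 in 96 h M1→M0 against 96 h M1→M1 (86), and the block moved no other count of linked genes by over 1.5 times. It brought Irf4 (-0.76, adjusted p = 0.049) and Klf4 (0.67, adjusted p = 0.049) past the limma threshold in 24 h M1, and, where the numbers do not pair, Cd274 (0.72, adjusted p = 0.022) and Slfn1 (0.40, adjusted p = 0.046) in 96 h M1→M0 against 0 h M0.

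In a window of 150 bases the shares of reclosed sites were 12.9% for the ISRE, 3.69% for GAS, 16.6% for AP-1, 2.95% for PU.1-IRF, 11.4% for C/EBP and 0.738% for CTCF, and over whole sites 12.2% for GAS, 30.6% for AP-1, 28.04% for C/EBP and 4.43% for CTCF. Within 2 or 10 kb, 9.96% or 22.5% of sites lay past a 3′ end. No called difference of a named gene changed direction, but the balance over all features did. Quantile normalization turned 2985 genes that rose and 2096 that fell in 24 h M1 into 2399 and 2803, and 1610 and 1891 in 96 h M1→M0 against 96 h M1→M1 into 1972 and 1810, and RLE size factors turned 22575 sites called higher and 19007 lower in 24 h M1 into 20745 and 21758. Over whole sites the κB share was 5.17% in reclosed and 5.22% in intermediate sites. The causes were not tested. Among named genes 3598 values kept their side of the threshold, 110 gained it and 137 lost it. Without the shallowest library, 24 h M1 replicate 3, the rule took 284 sites, and without 24 h M1 replicate 1 it took 307.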

Other observations

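The genes were also counted in the single-cell libraries, 1 per condition and so without a test. All deposited barcodes were summed, and no doublets were removed. Summed over 2842 barcodes of 24 h M1 (7115511 UMIs) and 2727 of 24 h M0 (5725353 UMIs), 31 of 45 genes with a reclosed site past their 3′ end were over 2 times 24 h M0 and 3 were under 0.5 of it. With a UMI in either library these are 77.5% and 7.5% of 40 genes, and over all 13771 features with such a UMI the shares were 15.7% and 33.4%. Gbp2 had 11572 UMIs in 24 h M1 and 23 in 24 h M0, Cxcl10 28654 and 17, Acod1 8812 and 1, and Ifit1 6199 and 40. Nos2 had 4025 UMIs in 24 h M1 and 0 in 24 h M0. Of the 10 such genes that the FPKM matrix does not list, 2 were over 2 times 24 h M0 and 1 was under 0.5 of it. Of 22881 barcodes over all 7 libraries, 279 distinct sequences occurred in more than 1 library.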
